A study of Mus musculus with 6 samples.

Results

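T-lineage genes were examined in sorted acute myeloid leukaemia cells by ATAC-seq, in which a transposase cuts and tags accessible DNA. The genes were Cd3e, Cd3d, Cd3g, Cd247, Lck, Cd2, Tcf7, Gata3, Bcl11b and Il2rb. A peak (an accessible region) was counted to a gene when its nearest transcription start site (TSS) belonged to that gene and lay within 100000 bp. This rule gave 113 of the 175929 peaks, of which 33 belonged to Cd247, 31 to Gata3, 22 to Tcf7, 8 to Lck, 6 to Il2rb, 5 to Cd3e, 4 to Bcl11b, 2 to Cd2, 1 to Cd3d and 1 to Cd3g. The nearest TSS names a peak here and does not show which gene the region regulates.

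All 6 libraries came from Usp18+/f UBCER-Cre AE9a leukaemia, in which cells with 1 floxed allele of Usp18, a gene for an ISG15 protease that restrains interferon signalling, carry a tamoxifen-activated Cre under the ubiquitin C promoter. AE9a is a truncated AML1-ETO fusion protein, introduced by retrovirus into mouse fetal liver cells according to the study's methods. Recipient mice that had become ill received oil (replicates 1, 2 and 4) or tamoxifen (replicates 1, 3 and 4), the latter to delete 1 Usp18 allele, and GFP+ Lin- c-Kit+ splenocytes were sorted 3 days after the first injection. The oil libraries carry the same Cre and the same floxed allele. The oil group did not receive tamoxifen, so that drug and deletion cannot be told apart here. The methods describe 3 mice per group, but no label ties a library to a mouse, so n counts libraries and p-values measure the spread between libraries only. Usp18 itself had 15 peaks within the same window, and 0 passed the adjusted threshold (DESeq2, log2 fold changes from -0.23 to 0.32). Peak tags do not show whether the floxed allele was cut.

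The CD3 chains and CD247 (the zeta chain) form the signalling part of the T-cell receptor complex, and the kinase LCK phosphorylates them once the receptor is engaged. TCF-1 (the product of Tcf7), GATA3 and BCL11B act in the commitment of thymic progenitors to the T lineage. A T-cell enhancer is known at the 3′ end of the CD3D gene, and Gata3 and Bcl11b are both known to have T-cell regulatory regions far from their promoters. A Lin- c-Kit+ gate is meant to leave mature T cells out. The lineage cocktail listed by the study for bone marrow contains an antibody to CD3, whereas the cocktail used on these splenocytes is not listed separately.

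3 of the 113 peaks differed between tamoxifen and oil at an adjusted p under 0.05, and their sequences are given here from the mm10 genome, forward strand, since the results turn on them. Capitals mark matches, on either strand, to 6 short motifs of blood transcription factors. RUNX proteins were searched as TGTGGT. For the GATA family the letters were AGATAA. ETS proteins were represented by CCGGAAG. The TCF/LEF family had CTTTGAT. E proteins were searched by the E-box CAGCTG. Finally, AP-1 was searched as TGANTCA, with any base at N. Of the Cd3d peak, which lies in a 3′ untranslated region, only the 22 bases around 1 of its motifs are shown.
Bcl11b peak, 38335 bp upstream of the TSS, intergenic, chr12:108041618-108041881: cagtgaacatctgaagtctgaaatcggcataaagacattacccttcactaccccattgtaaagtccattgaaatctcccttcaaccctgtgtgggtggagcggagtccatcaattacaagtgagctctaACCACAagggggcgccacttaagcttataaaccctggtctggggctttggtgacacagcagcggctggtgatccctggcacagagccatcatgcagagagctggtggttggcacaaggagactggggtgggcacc
Cd247 peak, 64542 bp downstream of the TSS, intron 1, chr1:165853081-165853365: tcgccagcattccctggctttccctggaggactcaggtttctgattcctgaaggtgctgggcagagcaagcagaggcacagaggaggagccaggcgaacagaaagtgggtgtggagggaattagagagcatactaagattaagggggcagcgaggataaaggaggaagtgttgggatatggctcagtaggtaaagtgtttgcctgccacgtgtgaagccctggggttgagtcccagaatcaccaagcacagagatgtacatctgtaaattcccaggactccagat
Cd3d site, within the peak 4851 bp downstream of the TSS, exon 5, chr9:44986687-44986708: aagcaggcTGTGGTgtttagaa
The Bcl11b peak held 1 RUNX match, which starts at its base 130. The Cd3d peak (chr9:44986514-44986761) held 2 RUNX matches, starting at bases 163 and 182, and 1 ETS match at base 142. The Cd247 peak held 0 of these motifs, which says only that these letters are not in this window.

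The libraries held 57.4 to 74.7 M tags in all (1 M is 1e6), and 45.0 to 57.0 tags at the median peak, where counting error is sizeable. Tamoxifen replicate 4 lay nearer to the oil libraries than the other tamoxifen libraries did. Over all peaks, its chi-square per degree of freedom was 1.73 to 1.96 against the oil libraries and 2.66 and 2.68 against tamoxifen replicates 1 and 3. These stood at 2.60 to 3.35 from the oil libraries and at 1.49 from each other, and the oil libraries differed by 1.04 to 1.22. Values without this library are therefore given for each gene. In bulk tags, a region open in fewer cells and a region less open in each cell cannot be told apart. Levels are normalised tags, meaning tags divided by DESeq2 size factors, and changes are log2 fold changes of tamoxifen over oil with standard errors (SE).

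Before the comparison, the accessibility of these genes in the oil libraries was placed among all genes. Of the 10 genes, 6 had a peak within 1000 bp of their TSS, and Cd3e, Cd3d, Cd247 and Cd2 had none. Tags per kb at the TSS peak lay at percentile 5.15 for Bcl11b, 5.17 for Cd3g, 8.60 for Il2rb, 14.4 for Lck, 23.5 for Tcf7 and 46.2 for Gata3 among 14458 genes with such a peak. Gata3 thus had the highest of these start sites, at 1514 tags per kb in the oil libraries, and it lay below the median gene (1679 tags per kb). Of 10 blast and progenitor markers, Mpo had no start-site peak and 6 lay within the range of the T-lineage genes, from Gfi1 (12.8) to Spi1 (45.6). Kit (the receptor selected in the sort) at percentile 78.3, Runx1 at 89.8 and Myb at 58.7 lay above it.

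**Figure D1:**
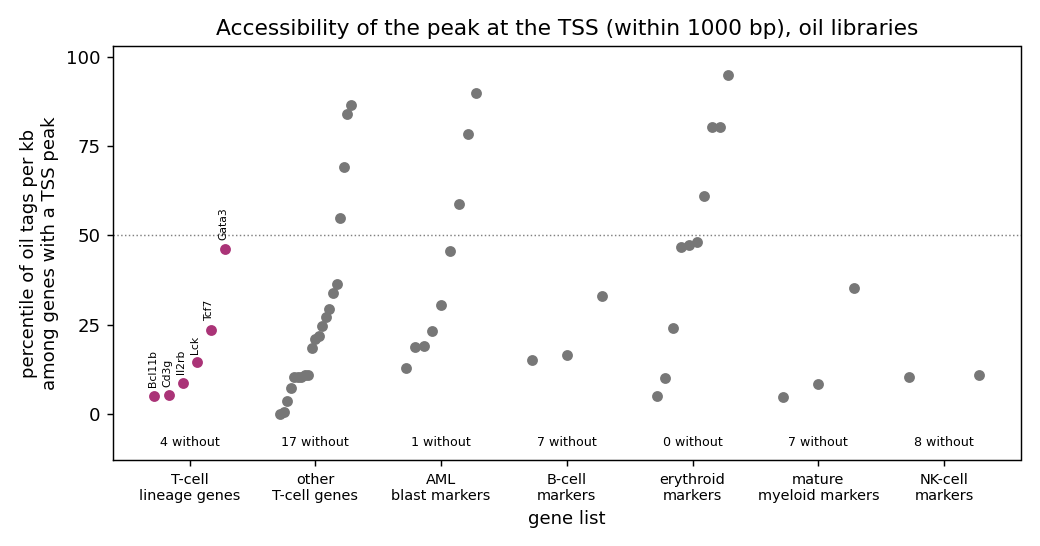
Percentile of oil tags per kb (y axis) at the peak within 1000 bp of the TSS, for the genes of each list (x axis), among 14458 genes with such a peak; each point is a gene and the number of genes without such a peak stands below. The 6 T-lineage genes with a start-site peak lie between percentiles 5.15 and 46.2, below the median (dotted line).

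The study asked with these data whether unusual interferon-responsive genes are under comparable chromatin control in mouse leukaemia depleted of Usp18 and in human cells, a question that does not name the T-lineage genes. Peaks at Cd3d and Bcl11b rose and 1 intronic peak of Cd247 fell, so that the T-lineage genes did not move as a block. In all, 3 of 113 peaks (2.65%) passed the adjusted threshold of 0.05 by DESeq2, against 1.39% of all 175929 peaks. 2 of these were higher after tamoxifen (1.77%, against 1.22% of all peaks) and 1 was lower (0.885%, against 0.167%). With the added requirement of a fold change over 2 used in the study, only the Bcl11b peak remained (0.654% of all peaks), and its fold change was 2.002, just above that limit. At an unadjusted p under 0.05 there were 15 peaks (13.3%, against 9.02% of all peaks), 8 higher and 7 lower.

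Without regard to the test, the 3 tamoxifen values lay above the 3 oil values at 14 of the 113 peaks (12.4%, against 11.9% of all peaks) and below them at 17 (15.04%, against 10.0%). These shares are close to those of all peaks in the upward direction and somewhat larger in the downward one. The median log2 fold change of the members was -0.07, beside -0.0013 over all peaks. Peaks from the list of 1 group alone lean to that group. The median was -0.23 for the 27 from the oil list alone, 0.29 for the 14 from the tamoxifen list alone and -0.03 for the 72 in both. The oil list alone gave 23.9% of the members, against 17.4% of all peaks. Of the 72, 10 lay apart upward (13.9%) and 11 downward (15.3%). The 14 upward peaks were spread over 7 genes, led by Tcf7 with 6, and the 17 downward ones came from Cd247 (9), Gata3 (7) and Lck (1). The many peaks of Cd247 and Gata3 therefore set the sign of the median. Over the other 49 peaks it was 0.25, a split made after the values were seen. Of these 49, 11 came from the tamoxifen list alone (22.4%, against 11.2% of all peaks), the group in which such peaks are higher. Another 11 came from the oil list alone (22.4%, against 17.4%).

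**Figure D2:**
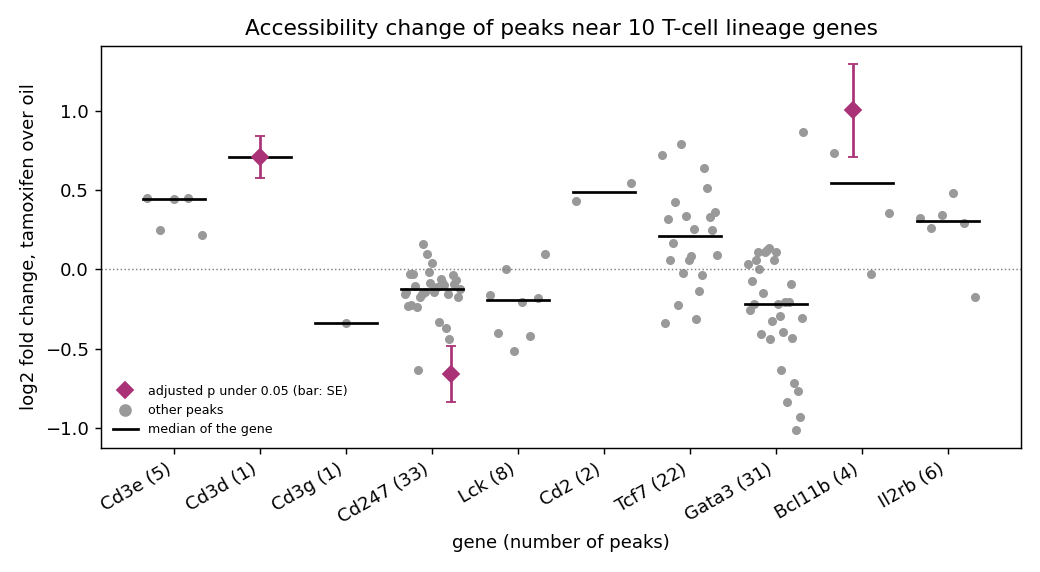
Log2 fold change of tamoxifen over oil (y axis) at each of the 113 peaks, by gene (x axis, number of peaks in brackets); diamonds are the 3 peaks with an adjusted p under 0.05, with SE, and black lines are the medians of each gene. The peaks of Cd3e, Cd3d and Cd2 lie above 0, and those of Cd247 mostly below. 2 of the 5 Cd3e peaks and 1 of the 2 Cd2 peaks came from the tamoxifen peak list alone.

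Among the CD3 genes, which lie next to each other on chromosome 9, the Cd3d peak had the smallest adjusted p of all members. It held 220.1, 231 and 213 normalised tags in oil replicates 1, 2 and 4 and 329, 426 and 333 in tamoxifen replicates 1, 3 and 4. Every tamoxifen library lay above every oil library, and tamoxifen replicate 4 stood with the others here. The means were 221 ± 9.22 and 363 ± 54.7 (SD, n = 3 each), a log2 fold change of 0.71 ± 0.13 (SE, DESeq2 adjusted p = 3.74e-05). The peak passed the threshold with any 1 library left out (adjusted p from 8.96e-06, without tamoxifen replicate 4, to 0.0132) and by edgeR (0.000557). With 892 tags per kb in the oil libraries it lay at percentile 87.4 of all peaks, although Cd3d had no peak at its own start site.

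Cd3e encodes the epsilon chain, and all 5 of its peaks had positive point estimates, from 0.22 to 0.45. Of these peaks, 2 came from the tamoxifen peak list alone, the group in which they are higher, and 1 from the oil list alone. The peak nearest the Cd3e TSS, 1136 bp upstream, held 23.2, 43.9 and 41.2 tags after oil and 62.8, 44.0 and 41.4 after tamoxifen. The groups overlapped there, as oil replicate 2 lay above tamoxifen replicate 4 (log2 fold change 0.45 ± 0.32, adjusted p = 0.787). The strongest Cd3e peak by level, 13434 bp upstream, held 53.5, 52.7 and 50.2 against 70.1, 78.6 and 64.7 tags and kept the groups apart, but did not pass (0.45 ± 0.24, adjusted p = 0.604). Cd3g, for the gamma chain, had a single weak peak at its start site with 16.5, 24.4 and 22.8 tags after oil and 13.0, 20.1 and 17.7 after tamoxifen. These overlapped, and at so few tags a modest difference was not detectable (log2 fold change -0.34 ± 0.43, adjusted p = 0.944).

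Cd247 went the other way. 30 of its 33 peaks had negative point estimates, as had 88423 of all 175929 peaks. 9 of the 33 kept the groups apart, all 9 lower after tamoxifen, as were 10.0% of all peaks. Neighbouring peaks of 1 gene are not replicates of each other. The intron 1 peak shown above held 174, 169 and 174 tags in the oil libraries and 99.1, 93.0 and 135 in tamoxifen replicates 1, 3 and 4. Every tamoxifen library was lower, with replicate 4 nearest to oil. The log2 fold change was -0.66 ± 0.17 (SE; adjusted p = 0.0186) with all 6 libraries and -0.84 without tamoxifen replicate 4 (adjusted p = 0.000567). It lost the threshold with any other single library left out (adjusted p from 0.158 to 0.33).

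The fall was not uniform along Cd247. The most accessible peak of the gene lies further on in the same intron (65298 bp from the TSS), and its levels were 515, 482 and 495 tags after oil and 459, 509 and 491 after tamoxifen, which overlap (log2 fold change -0.03 ± 0.10). The peak nearest the TSS, 6585 bp upstream, held 132, 113 and 99.5 against 70.1, 63.5 and 88.0 tags with no overlap, and missed the threshold with all libraries (-0.64 ± 0.21, adjusted p = 0.116). It passed without tamoxifen replicate 4 (-0.78, adjusted p = 0.0254) and by edgeR. With any other single library left out it did not pass (DESeq2 adjusted p from 0.231 to 0.812). Cd247 was also the most widely accessible of the 10 genes outside its promoter, with 24 peaks inside the gene and 9 upstream, and 25 of the 33 were in the peak lists of both groups.

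LCK is the kinase that starts T-cell receptor signalling, and its gene had 8 peaks. Of these, 7 lay within 3000 bp upstream of or at a start site, and the distances refer to different annotated start sites of Lck. At the start-site peak with the smaller p, 100 bp downstream of its TSS, there were 59.0, 64.8 and 57.8 tags after oil and 41.6, 46.2 and 47.5 after tamoxifen. The groups did not overlap, yet the difference missed the threshold (log2 fold change -0.42 ± 0.26, adjusted p = 0.713). The strongest Lck peak by level, 1690 bp upstream, held 122, 158 and 144 against 138, 144 and 143 tags and did not separate (0.01 ± 0.17). Cd2, for an adhesion receptor, had 2 upstream peaks, the farther of them from the tamoxifen peak list alone, and none at its start site. The nearer one, 7730 bp upstream, held 60.7, 53.6 and 71.7 tags after oil and 93.8, 89.7 and 88.9 after tamoxifen, without overlap (0.55 ± 0.22, adjusted p = 0.304).

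Of the 3 transcription factor genes, Bcl11b alone had a peak past the adjusted threshold. This peak, 38335 bp upstream, held 33.1, 31.2 and 34.0 tags in the oil libraries and 76.8, 73.5 and 46.6 in tamoxifen replicates 1, 3 and 4. The oil values were tight, and the lowest tamoxifen value, again replicate 4, still lay above them. The log2 fold change was 1.00 ± 0.29 (SE; adjusted p = 0.0439). It was 1.20 without tamoxifen replicate 4 (adjusted p = 0.00317) and missed the threshold without any 1 of the other 5 libraries (adjusted p from 0.234 to 0.522). The start-site peak of Bcl11b, 756 bp upstream, did not follow, with 25.4, 20.97 and 24.6 against 30.4, 17.8 and 21.4 tags (-0.03 ± 0.39), a sign that turned under 5 alternatives. The intron 1 peak held 35.3, 42.4 and 28.2 against 51.7, 43.5 and 40.5 tags, overlapping, and the farthest peak, 74908 bp upstream, 14.3, 24.4 and 15.2 against 34.3, 29.0 and 26.1, without overlap (adjusted p = 0.858 and 0.607). The farthest peak is named to complete the gene, after its values were seen, and came from the tamoxifen peak list alone.

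**Figure D3:**
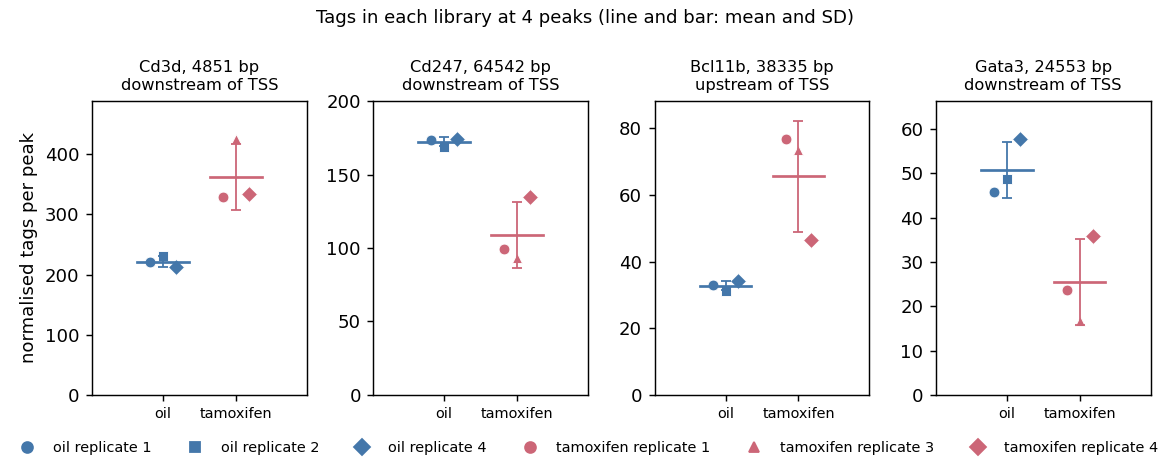
Normalised tags (y axis, from 0) in each library at the Cd3d, Bcl11b and Cd247 peaks with an adjusted p under 0.05 and at the Gata3 peak with the smallest p; lines and bars are means and SD of 3 libraries. Tamoxifen replicate 4 (red diamond) is the tamoxifen library nearest to oil at the Bcl11b, Cd247 and Gata3 peaks but not at the Cd3d peak.

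Tcf7 had 22 peaks, 16 with positive and 6 with negative point estimates, and none passed the adjusted threshold. Of the 22, 5 came from the tamoxifen peak list alone and 4 from the oil list alone. The 6 whose groups did not overlap were all higher after tamoxifen, 4 upstream and 2 in the gene. Over all peaks, 11.9% lay apart and higher and 10.0% apart and lower. Among these 6, the peak 35698 bp upstream came from the tamoxifen list alone. The one with the smallest p, 16909 bp upstream, held 33.1, 21.9 and 23.7 tags after oil and 55.1, 39.6 and 38.2 after tamoxifen (log2 fold change 0.79 ± 0.33, adjusted p = 0.356). The nearest to the TSS, at 80 bp upstream, held 60.1, 66.3 and 50.2 against 67.7, 46.2 and 56.8 tags, with overlap and an estimate of -0.03 ± 0.26 whose sign was not stable. The 5 peaks within 3000 bp had a median of -0.03, the 11 farther upstream one of 0.17 and the 6 farther inside the gene one of 0.35.

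Gata3 had the most accessible start region of the 10 genes and no peak that passed by DESeq2 with all libraries. Its highest peak, 1117 bp upstream, held 586, 559.7 and 530.4 tags after oil and 581, 609 and 531 after tamoxifen (log2 fold change 0.04 ± 0.09). The start-site peak held 397, 373 and 380 against 341, 368 and 386 (-0.07 ± 0.11), so that both overlapped closely at a high level. Lower values appeared past the 3′ end of the gene instead. The peak 24553 bp downstream of the TSS, chosen as the Gata3 peak with the smallest p, held 45.8, 48.8 and 57.8 tags in the oil libraries and 23.7, 16.7 and 35.8 after tamoxifen. The groups did not overlap and the estimate of -1.01 ± 0.33 missed the threshold (adjusted p = 0.11), although it passed without tamoxifen replicate 4 (-1.34, adjusted p = 0.0136) and by edgeR. With any other single library left out, this peak did not pass (DESeq2 adjusted p from 0.403 to 0.875). It belongs to a row of 4 neighbours between 23726 and 26184 bp, noticed after the values were seen, whose estimates ran from -1.01 to -0.72. The outermost of the row, at 26184 bp, also passed by edgeR. All 4 came from the oil peak list alone, which was made from these same libraries.

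Still farther out, the Gata3 estimates differed in sign, at peaks named after their values were seen. The outermost peak inside the 100000 bp limit, at 76824 bp, held 31.4, 21.9 and 17.5 tags after oil and 37.7, 44.6 and 44.2 after tamoxifen, without overlap (0.87 ± 0.34, adjusted p = 0.277). It came from the tamoxifen peak list alone, the group in which it is high. The first peak outside the limit, at 105647 bp, held 20.96, 32.2 and 29.6 against 26.1, 17.8 and 16.8 (-0.45 ± 0.40, oil peak list alone), and the next, at 196848 bp, overlapped too (0.39 ± 0.28). A peak named for Gata3 at 284414 bp, which the rule leaves out, held 45.2, 61.4 and 65.9 against 83.1, 93.6 and 87.1 tags, without overlap (0.60 ± 0.23, adjusted p = 0.244). None of these 4 passed the threshold by DESeq2, and the peak at 76824 bp passed by edgeR.

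**Figure D4:**
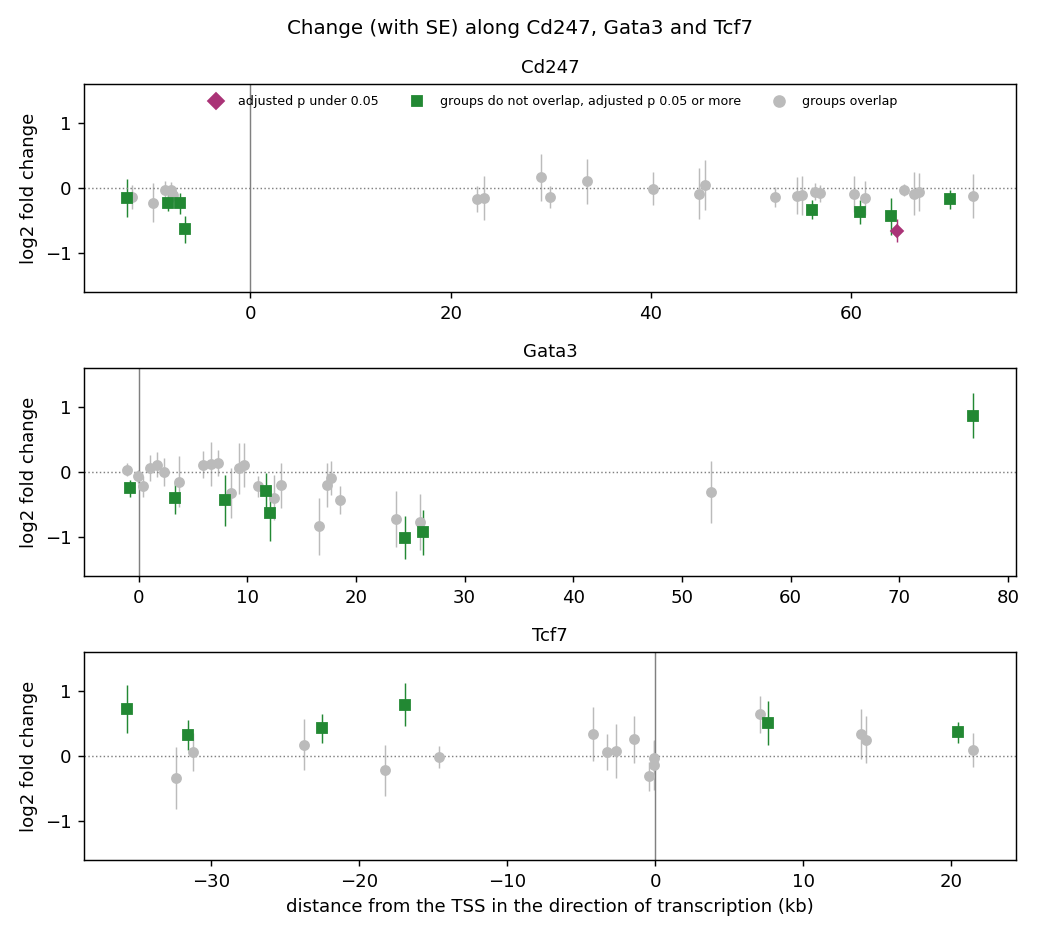
Log2 fold change with SE (y axis) against distance from the TSS in kb (x axis) for the peaks of Cd247, Gata3 and Tcf7; diamonds have an adjusted p under 0.05 and squares are further peaks whose groups do not overlap. Squares lie below 0 for Cd247 and, except at the outermost peak, for Gata3, and above 0 for Tcf7.

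Il2rb encodes the receptor chain shared by interleukin 2 and interleukin 15, and NK cells use it as well as T cells. Its start-site peak held 39.7, 44.9 and 42.6 tags after oil and 58.0, 56.3 and 48.9 after tamoxifen, without overlap (log2 fold change 0.34 ± 0.27, adjusted p = 0.836). The other 5 peaks, at means of 18.5 to 32.0 tags after oil, overlapped between the groups, with estimates from -0.17 to 0.48. Without tamoxifen replicate 4, the peaks described above as nearest to a TSS or of smallest p at Cd3e, Cd3g, Lck, Cd2, Tcf7 and Il2rb did not pass the threshold. The estimate became 0.57 and 0.51 for the nearer and farther Cd3e peaks (adjusted p = 0.489 and 0.386), -0.36 for Cd3g (0.837) and -0.45 for Lck (0.537). It became 0.56 for Cd2 (adjusted p = 0.243), 0.89 and -0.03 for the farther and nearer Tcf7 peaks (0.188 and 0.986) and 0.42 for Il2rb (0.600). The start-site peak of Gata3 was at -0.11 (0.767) and that of Bcl11b at 0.04 (0.987).

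To give 1 value per gene, tags were summed over the peaks of each gene and tested over all 19781 genes of the table. The sums include peaks from the list of 1 group alone, which favours that group. For Cd3e, Cd2, Tcf7, Bcl11b, Cd247 and Gata3, 2, 1, 5, 1, 2 and 1 came from the tamoxifen list alone. From the oil list alone came 1, 0, 4, 1, 6 and 10. Cd3d (0.71 ± 0.13, adjusted p = 5.41e-06) and Bcl11b (0.58 ± 0.18, adjusted p = 0.0242) rose and Cd247 fell (-0.15 ± 0.05, adjusted p = 0.0269), which is 3 of 10 genes against 7.18% of all genes. For Cd3d, with its single peak, the sum repeats the peak. Non-overlap of sums is described below without its share over all genes, so how common it is cannot be read from it. Summed tags of Bcl11b were 108, 119 and 102 in the oil libraries and 193, 164 and 135 in tamoxifen replicates 1, 3 and 4, without overlap. Those of Cd247 were 4274, 4234 and 4301 against 3734, 3795 and 4013, a small shift that also kept the groups apart. It missed the threshold with total-tag size factors (-0.14, adjusted p = 0.0868). The other 7 genes did not pass. Among these, Cd2 (0.52 ± 0.19, adjusted p = 0.0799), Tcf7 (0.20 ± 0.07, adjusted p = 0.0752) and Cd3e (0.38 ± 0.15, adjusted p = 0.106) had no overlap and higher tamoxifen values, whereas Gata3 (-0.12 ± 0.06, adjusted p = 0.253), Lck (-0.18 ± 0.10, adjusted p = 0.369), Il2rb (0.25 ± 0.17, adjusted p = 0.495) and Cd3g (adjusted p = 0.81) overlapped. Without tamoxifen replicate 4, 7 genes passed, as Cd3e, Cd2, Tcf7 and Gata3 joined, and without any 1 of the other 5 libraries Cd3d alone did. The share of all genes passing without tamoxifen replicate 4 is not given here. Called peaks over the whole table rose in that fit too, from 1150 to 2710, so the 7 is not read as particular to these genes.

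**Figure D5:**
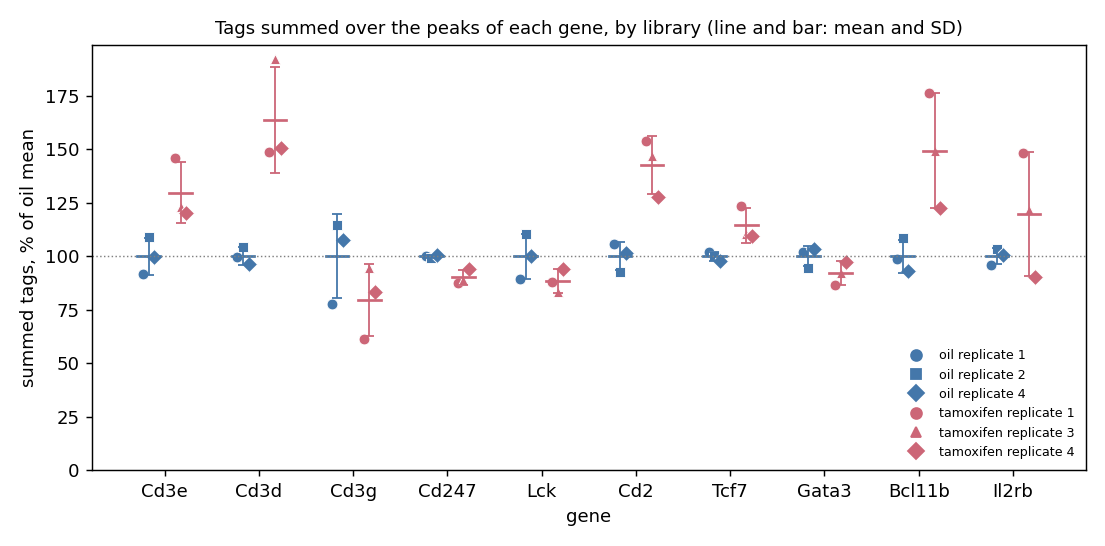
Tags summed over the peaks of each gene in each library, as a percentage of the oil mean (y axis, from 0), by gene (x axis); lines and bars are means and SD of 3 libraries per group. The tamoxifen libraries lie above all oil libraries for Cd3e, Cd3d, Cd2, Tcf7 and Bcl11b and below them for Cd247. The share of all genes with such a gap is not given.

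The wider T-cell pathway was taken from a list of 38 further T-cell genes, of which 34 had peaks (376 in all) and Cd8b1, Foxp3, Satb1 and Tox had none. 11 of these peaks rose (2.93%, beside the 1.22% above), 0 fell and the median log2 fold change was 0.08. Those with the smallest adjusted p included the start-site peak of Runx3, a RUNX factor of cytotoxic T cells, with 213, 198 and 199.8 tags after oil and 376, 398 and 291 after tamoxifen (0.80 ± 0.14, adjusted p = 3.41e-06). The peak 2133 bp upstream of Thy1, a surface glycoprotein of thymocytes that some progenitors carry too, rose from 28.1, 36.1 and 36.3 to 109.7, 105 and 68.0 tags (1.48 ± 0.27, adjusted p = 2.19e-05). Peaks of Zap70, the kinase that docks on phosphorylated CD3 and zeta chains (1.13 ± 0.25), and of Lef1, a relative of TCF-1 (0.90 ± 0.20), rose as well. Without tamoxifen replicate 4 the peaks of Runx3 (0.93), Thy1 (1.68), Zap70 (1.25) and Lef1 (0.96) stayed past the threshold. That fit leaves out the tamoxifen library nearest to oil and called 2710 peaks in all, against 1150, so this adds no support. The peaks of Runx3 and Thy1 passed with any 1 library left out. The Zap70 peak missed the threshold without oil replicate 1 or tamoxifen replicate 3 (DESeq2 adjusted p = 0.0717 and 0.171). The Lef1 peak missed it without oil replicate 1 or tamoxifen replicate 1 (0.0705 and 0.132). Every one of the 11 peaks kept its groups apart, which adds little, as they were chosen by p between the same libraries. Of all 376 peaks, 67 lay apart and higher (17.8%, against 11.9% of all peaks). Another 29 lay apart and lower (7.71%, against 10.0%). Leaving out 1 library gave between 3 and 20 peaks of this list past the threshold, the most without tamoxifen replicate 4.

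Markers of other cells were counted over the same fit. Of 352 peaks of 10 blast and progenitor genes, 10 rose (2.84%, against 1.22% of all peaks) and 1 fell (0.284%, against 0.167%), with a median of 0.16, and their summed level went from 29569.9 to 30674 tags in the oil libraries to 31617 to 34814 after tamoxifen. The start-site peak of Cd34 was among those that rose (log2 fold change 1.50). Of 207 peaks of erythroid genes 2 rose (0.966%) and 3 fell (1.45%), with a median of -0.13 and sums of 20446 to 21077 after oil and 19195 to 19510.3 after tamoxifen. B-cell genes (60 peaks, sums of 3812 to 3961 and 3740 to 4032), mature myeloid genes (60 peaks, 6781 to 6978 and 7102 to 7322) and NK-cell genes (54 peaks, 5051 to 5294 and 5328 to 5586) had 0 peaks past the threshold by DESeq2, with 7, 4 and 5 at an unadjusted p under 0.05 (11.7%, 6.67% and 9.26%, against 9.02% of all peaks). Ms4a1 and Vpreb1 of the B-cell list, Lyz2 of the myeloid list and Gzma, Klra8, Klrd1, Klrk1 and Ncr1 of the NK-cell list had no peak at all. The summed level of the 10 T-lineage genes was 9315 to 9509 tags after oil and 9056 to 9326 after tamoxifen. The part of other cells in the sorted samples was not tested.

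The sequence of the T-lineage peaks was described over the central 200 bp of each. A RUNX motif stood in 27 of the 113 windows (23.9%, Wilson 95% interval 17.0 to 32.5%) and in 18.7% of the same windows over all peaks. GATA motifs were in 7 windows (6.19%, interval 3.03 to 12.2%, all peaks 15.1%), TCF/LEF motifs also in 7 (6.19%, all peaks 2.32%) and ETS motifs in 7 (6.19%, all peaks 2.97%). The E-box was in 15.04% (all peaks 13.1%) and AP-1 in 9.73% (all peaks 6.61%). Neighbouring peaks share a gene, and the intervals cover counting error only. Over 400 bp the GATA share was 22.1%, close to the 23.8% of all peaks, so that the low GATA share holds for the peak centres alone.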

How the data were processed

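ATAC-seq was measured in 3 oil and 3 tamoxifen libraries, grouped by the labels. Per the file headers and the study's methods, the authors mapped reads with Bowtie2 to mm10, called and merged peaks with HOMER and deposited an estimated count of tags per merged peak, in steps of 0.5 (a read pair's mate counts 0.5). No more than 3 tags counted at a position, and the values were not normalised. Peaks were called in the libraries that were then compared, and the cap lowers the highest peaks. Tags were rounded and all peaks tested together with DESeq2 1.42.0 (R 4.3.3, Wald test, defaults, Benjamini-Hochberg), as in the study except that peaks near start sites were kept. Summed gene tags used the same size factors. Alternatives included other size factors, edgeR 4.0.16 (quasi-likelihood), a minimum of 10 tags in 3 libraries, narrower windows, distal peaks and single libraries left out. Motif windows came from the mm10 reference sequence (0 of 21 chromosomes had a peak past its end). No label says whether replicate numbers pair libraries. Deviations of same-numbered libraries correlated at -0.0469 and 0.0498, which cannot settle it with so few libraries. Named peaks are, per gene, the nearest to the TSS, the highest per kb, the one with the smallest p and those past the threshold. Other peaks are said to have been named later. The genes and all lists were chosen with earlier results of these data known.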

Additional observations from a re-analysis of the deposited data

How the results depend on the processing

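Size factors from TMM, total tags or tags in peaks, the low-tag filter and distal peaks alone left the same 3 T-lineage peaks past the threshold, though with total tags the Cd247 gene sum lost it (2 instead of 3 sums). With tags-in-peaks size factors and with distal peaks alone, 0 instead of 1 also exceeded a fold of 2, since the Bcl11b estimate fell to 0.99. edgeR passed 7 peaks (0 over a fold of 2), 5 gene sums and 20 peaks of further T-cell genes, with 1815 instead of 1150 peaks called in all. Within 10000 bp of a TSS, 1 T-lineage peak passed (0 over a fold of 2; median log2 fold change 0.000595) and 1 gene sum. Within 3000 bp, 0 peaks (0 over a fold of 2) and 0 gene sums passed by DESeq2, and the sums of Tcf7 (-0.094) and Bcl11b (-0.029) turned negative. A replicate block, possible only on replicates 1 and 4, left 0 T-lineage peaks past the threshold, 0 over a fold of 2, 0 gene sums, 0 peaks of further T-cell genes and 52 called peaks in all, with 34 T-lineage peaks given no adjusted p. That fit has 4 libraries, and no label says whether the numbers pair them. The loss is not described as a weaker effect, and whether it comes from the block or from the fewer libraries was not tested.

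With 1 library left out, 1 to 6 T-lineage peaks passed, 0 to 2 of them over a fold of 2, as did 1 to 7 gene sums, 3 to 20 peaks of further T-cell genes and 369 to 2710 called peaks over the whole table. Each maximum came without tamoxifen replicate 4. Small estimates at start sites changed sign, namely the Bcl11b peak 756 bp upstream (0.0271 with the replicate block, from -0.283 to 0.125 with 1 library left out, and above 0 without oil replicate 1 or 4 or tamoxifen replicate 3 or 4) and the Tcf7 peak 80 bp upstream (0.178 with the block, from -0.173 to 0.0859 with 1 library left out, and above 0 without oil replicate 2 or tamoxifen replicate 3). Over 400 bp, the RUNX share was 37.2%, GATA 22.1% and the E-box 26.5%. The cause of these changes was not tested beyond the number of libraries or peaks each setting keeps. Depth limits the weaker peaks, at about 20 to 50 tags per library.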

Other observations

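The T-cell receptor genes themselves, examined after the other values were seen, differed between loci. At the gamma locus (chromosome 13) 11 of 12 peaks had positive estimates and 3 rose (25%, against 1.22% of all peaks). At the alpha and delta locus 0 of 133 peaks passed by DESeq2 (12 at an unadjusted p under 0.05, 9.02%, the share of all peaks), and at the beta locus 1 of 40 did (2.5%). Whether the loci differ from each other was not tested.

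The clearest gamma peak lies 2686 bp after Tcrg-C1, a constant gene, in a locus where enhancers are known to lie past the constant genes. It held 23.2, 14.6 and 26.0 normalised tags in oil replicates 1, 2 and 4 and 101, 132 and 68.4 in tamoxifen replicates 1, 3 and 4, a wide gap with replicate 4 again lowest of the tamoxifen libraries (log2 fold change 2.23 ± 0.31 SE, DESeq2 adjusted p = 1.75e-09). It passed with any 1 library left out and by edgeR (adjusted p = 0.000253), and not with the replicate block on 4 libraries (1.75, adjusted p = 0.537). Its sequence is shown because it holds 2 RUNX, 1 GATA and 1 E-box match, in capitals.
Gamma locus peak, chr13:19219710-19219999, mm10, forward strand: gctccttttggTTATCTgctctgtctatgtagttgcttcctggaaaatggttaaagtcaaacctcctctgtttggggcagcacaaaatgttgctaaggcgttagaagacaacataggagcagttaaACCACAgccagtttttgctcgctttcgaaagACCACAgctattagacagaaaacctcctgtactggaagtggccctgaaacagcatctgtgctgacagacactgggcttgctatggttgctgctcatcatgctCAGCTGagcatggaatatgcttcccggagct
A second peak, 3540 bp after Tcrg-C4, held 12.7, 15.1 and 17.5 tags after oil and 28.5, 68.0 and 61.0 after tamoxifen (1.75 ± 0.39, adjusted p = 0.00134). It came from the tamoxifen peak list alone, the group in which it is high. All 3 tamoxifen values lay above the oil values, here with replicate 1 the lowest. The third rose from 32.0, 19.0 and 30.0 to 45.4, 70.2 and 61.0 tags (1.11 ± 0.31, adjusted p = 0.0329) and lost the threshold without any 1 of 5 libraries.

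The single beta-locus peak, near Moxd2 and far from the constant genes, went from 9.38, 8.78 and 15.2 to 44.5, 104 and 33.1 tags (2.44 ± 0.44, adjusted p = 2.18e-05), and did not pass by edgeR (adjusted p = 0.073). It too came from the tamoxifen peak list alone.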
